A study of Homo sapiens with 12 samples.

Results

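The integrated stress response (ISR) and amino acid supply genes are 41 genes that were taken by name from the 57187 rows of the count table. They were measured in 12 RNA sequencing libraries from the human breast cancer lines MDA-MB-231 and HCC1954 and the human ovarian cancer lines OVCAR8 and SKOV3. Control cells (EV), cells transfected with *SIVA-WT* and cells transfected with *SIVA-D160N* were sequenced once for every line, *SIVA-D160N* being a version of the apoptosis-related gene *SIVA1* that carries a change of 1 amino acid. According to the study, the cells were stable, polyclonal, hygromycin-selected transfectants, and the insert was driven by a CMV promoter that also gave GFP. The sample labels call the control cells parental and untreated, whereas the study's supplement calls them both parental and EV. If they were parental, transfection and selection cannot be told apart from the insert in any comparison with EV, while *SIVA-WT* and *SIVA-D160N* share both. With 1 library per line and condition, a ratio within a line has no replicate check, and the 4 lines served as the replicates of a condition (n = 4). P-values for a condition then measure the spread between these lines.

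The ISR is a signalling pathway in which several stress kinases phosphorylate the translation factor eIF2. Most translation slows down, but the mRNA of the transcription factor ATF4 is translated more. ATF4, often as a dimer with a C/EBP protein, switches on genes for amino acid synthesis, amino acid uptake and one-carbon metabolism, as well as its own feedback regulators and the factor CHOP, which is encoded by *DDIT3*. The pathway is known for its response to amino acid shortage, endoplasmic reticulum stress and mitochondrial stress, and cancer cells use it to adapt to poor nutrient supply. RNA counts measure neither eIF2 phosphorylation nor ATF4 protein.

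Total counts per library were between 35791455 and 45890398. A gene without counts is limited to at most 0.0663 to 0.0850 CPM (counts scaled to library size, which was adjusted by TMM for library composition), taking 3 counts as the limit, for counting error only. *SIVA1*, which the vectors carry, was at 28.1, 80.6 and 68.1 CPM in the EV, *SIVA-WT* and *SIVA-D160N* libraries of MDA-MB-231, and at 0, 37.8 and 26.3 CPM in those of HCC1954. It was at 66.1, 176 and 160.3 CPM in OVCAR8 and at 52.4, 106 and 112 CPM in SKOV3, higher than EV in 4 of 4 lines for each insert (exact permutation test by sign flips, two-sided, p = 0.125, which is the minimum for 4 lines). The amplified receptor gene *ERBB2* was at 9127, 7613 and 5691 CPM in EV, *SIVA-WT* and *SIVA-D160N* of HCC1954, at 12135, 8838 and 5950 CPM in those of SKOV3 and at 32.0 to 77.8 CPM in the other lines. *VIM*, a mesenchymal gene, was at 94.6, 159 and 288 CPM in HCC1954, so that both genes moved with the condition there. Of the epithelial genes, *CDH1* was at 689 to 807 CPM in HCC1954 and at most 0.491 CPM elsewhere. *KRT8*, another of them, was at 259 to 3770 CPM in all lines. *PAX8*, a Müllerian factor, was at 60.9 to 243 CPM in the ovarian lines and at 1.54 to 3.43 CPM in the breast lines. Of the breast markers, *GATA3* was low in MDA-MB-231, at 1.79 to 2.85 CPM, and of the ovarian ones, *WT1* and *MUC16* were at or under 6.80 CPM in OVCAR8 and SKOV3, while the breast line HCC1954 had 5.49 to 7.98 CPM of *WT1* and 65.4 to 114 CPM of *MUC16*. The breast marker *TFAP2A* was at 78.5 to 82.5 CPM in HCC1954. It was at 35.2 to 45.2 CPM in the ovarian lines and at 3.96 to 5.73 CPM in MDA-MB-231. *TRPS1*, also a breast marker, was at 27.6 to 47.0 CPM in HCC1954 and SKOV3 and at most 16.3 CPM elsewhere. The ovarian marker *SOX17* was at 7.08 to 9.39 CPM in SKOV3 and at most 0.0785 CPM elsewhere. Of the markers of other cell types, the immune genes *PTPRC*, *CD3E* and *CD68* were at or under 0.620 CPM in all 12 libraries. *COL1A1*, a collagen gene of fibroblasts, was at 23.8, 406 and 503 CPM in EV, *SIVA-WT* and *SIVA-D160N* of SKOV3, and *PECAM1*, an endothelial gene, was at 62.1, 59.5 and 32.3 CPM in HCC1954. The part of these differences in the results was not tested. In bulk RNA, fewer cells of a type and less RNA per cell cannot be told apart.

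The letters to which dimers of C/EBP and ATF proteins bind are shown for the members that hold them, since ATF4 acts through such dimers. Of the 41 members, 33 were matched in the RefSeq promoter table (GRCh38.p14), which gives 250 bases before to 50 bases after each gene's start. TGATGNAA, searched on both strands, was in the 250 bases before the start of 5 members, *ASNS*, *ATF3*, *CHAC1*, *FGF21* and *MTHFD1L*. This was 15.2% of the members, against 3.19% of all 27305 promoters in the table. ATTGCATC, which can overlap TGATGNAA, was in *FGF21* and *MTHFD1L* (6.06% of the members, against 0.469% of all promoters). CCAAT followed by 9 bases and CCACG, the endoplasmic reticulum stress element, was in 0 members and in 0.0806% of all promoters. A match of letters is a description and not a binding site, and a gene without it may hold it elsewhere. The 60 bases around each TGATGNAA match are given 5′ to 3′ along the strand of the gene, with the match or its reverse complement in capitals.
CHAC1, chr15:40953236-40953295, + strand: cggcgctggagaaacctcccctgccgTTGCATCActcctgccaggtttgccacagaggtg
ASNS, chr7:97872443-97872502, - strand: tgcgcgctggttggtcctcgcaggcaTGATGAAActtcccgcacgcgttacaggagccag
ATF3, chr1:212565190-212565249, + strand: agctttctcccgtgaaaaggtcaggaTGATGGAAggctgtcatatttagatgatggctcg
FGF21, chr19:48755444-48755503, + strand: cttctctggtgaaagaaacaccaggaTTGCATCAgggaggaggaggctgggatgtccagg
MTHFD1L, chr6:150866331-150866390, + strand: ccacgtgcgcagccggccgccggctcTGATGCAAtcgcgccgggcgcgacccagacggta
The match in *ASNS* ends 61 bases before the gene's start in the promoter table, and the one in *FGF21* 47 bases. The one in *MTHFD1L* ends 122 bases before it, the one in *ATF3* 184 bases and the one in *CHAC1* 202 bases. For *ASNS* and *MTHFD1L* this start differs from that of the listed gene span. Their matches lie inside those spans (chr7:97851677-97928441 and chr6:150865702-151101887). Of these 5 genes, *ASNS* and *CHAC1* were lower in *SIVA-D160N* than in EV in all 4 lines, *ATF3* and *MTHFD1L* in 2 of 4 lines, and *FGF21* in MDA-MB-231, the one line in which it had more than 4 counts in any library.

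The members were then compared between *SIVA-D160N* and EV, which asks whether cells with the mutant insert differ from control cells. Most members were lower in *SIVA-D160N*, and their median log2 fold change was -0.55, against -0.0090 over all 17211 genes tested. The members were below 0 in 38 of 41 rows, against 51.7% of all genes. The 41 rows are 40 members, because *CBS* has a second row for a near-identical copy and *FGF21* had too few counts for the filter. Fold changes are given with the standard error (SE) of the fit. No single member passed both thresholds, which were an FDR (Benjamini-Hochberg adjusted p of edgeR's quasi-likelihood test) under 0.05 and a log2 fold change of 1.5 or more in size. Of all genes, 0.00581% passed them. The members were chosen with earlier results of these data known, so the shares that follow are a description only. At an unadjusted p under 0.05, 23 members were lower and 0 were higher, against 7.68% of all genes that were lower and 6.52% that were higher. Without MDA-MB-231, 15 members were lower at this p, against 1071 of all 18601 genes tested there, and the median of the members was -0.26. The call in single members depended on the processing. *NUPR1* passed both thresholds with the likelihood ratio test and DESeq2, *CHAC1* with limma-voom, and *ATF3*, *NUPR1*, *GDF15* and *FGF21* without the filter on low counts.

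**Figure D1:**
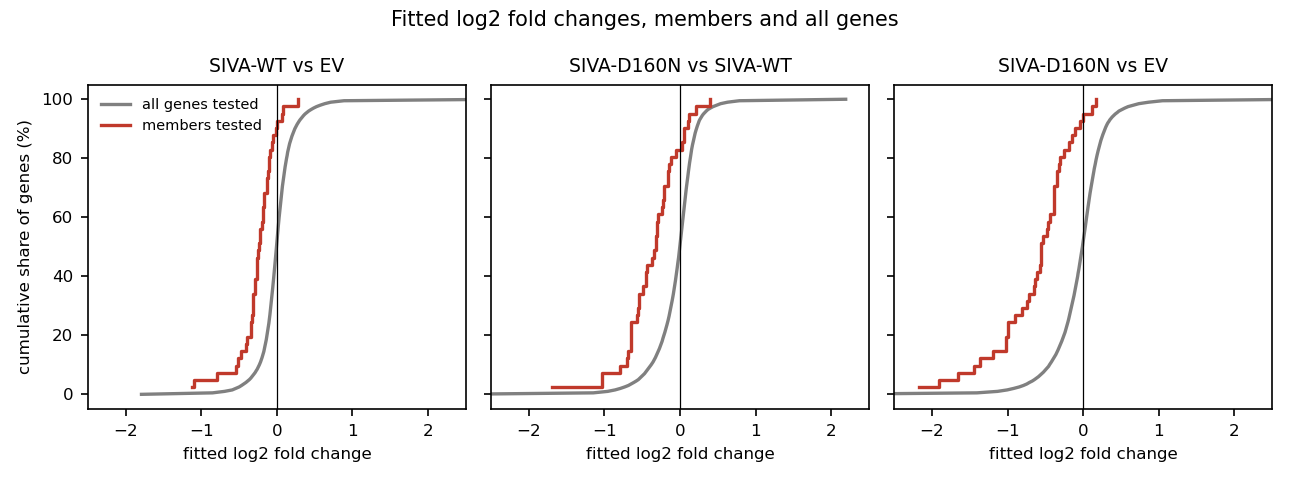
Cumulative share of genes (%, vertical axis) by fitted log2 fold change (horizontal axis) in the 3 comparisons. The red line of the 41 member rows lies to the left of the grey line of all 17211 genes tested in each panel, with medians of -0.24 for *SIVA-WT* vs EV, -0.32 for *SIVA-D160N* vs *SIVA-WT* and -0.55 for *SIVA-D160N* vs EV.

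The difference was not the same size in the 4 lines. In MDA-MB-231, 26 of 41 rows were at least 2-fold lower in *SIVA-D160N* than in EV, against 4.3% of all genes. In HCC1954 there were 6 (*NUPR1*, *DDIT4*, *SESN2*, *CHAC1*, *ASNS* and *VLDLR*, against 5.46% of all genes), in OVCAR8 0 (1.55%) and in SKOV3 7 (*ATF3*, *NUPR1*, *PPP1R15A*, *CHAC1*, *PHGDH*, *ASNS* and *ULBP1*, against 6.04%). No row was at least 2-fold higher in any line, where the shares of all genes were 4.76% (HCC1954), 2.7% (SKOV3), 2.53% (MDA-MB-231) and 1.96% (OVCAR8). The median log2 ratio was -1.17 for MDA-MB-231, -0.34 for HCC1954, -0.39 for SKOV3 and -0.19 for OVCAR8. In all, 15 rows were lower in 4 of 4 lines, against 8.29% of all genes. They were *ATF4*, *DDIT3*, *CEBPB*, *TRIB3*, *DDIT4*, *SESN2*, *EIF4EBP1*, *CHAC1*, *PHGDH*, *PSAT1*, *SHMT2*, *ASNS*, *PCK2*, *GPT2* and *SLC1A4*.

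**Figure D2:**
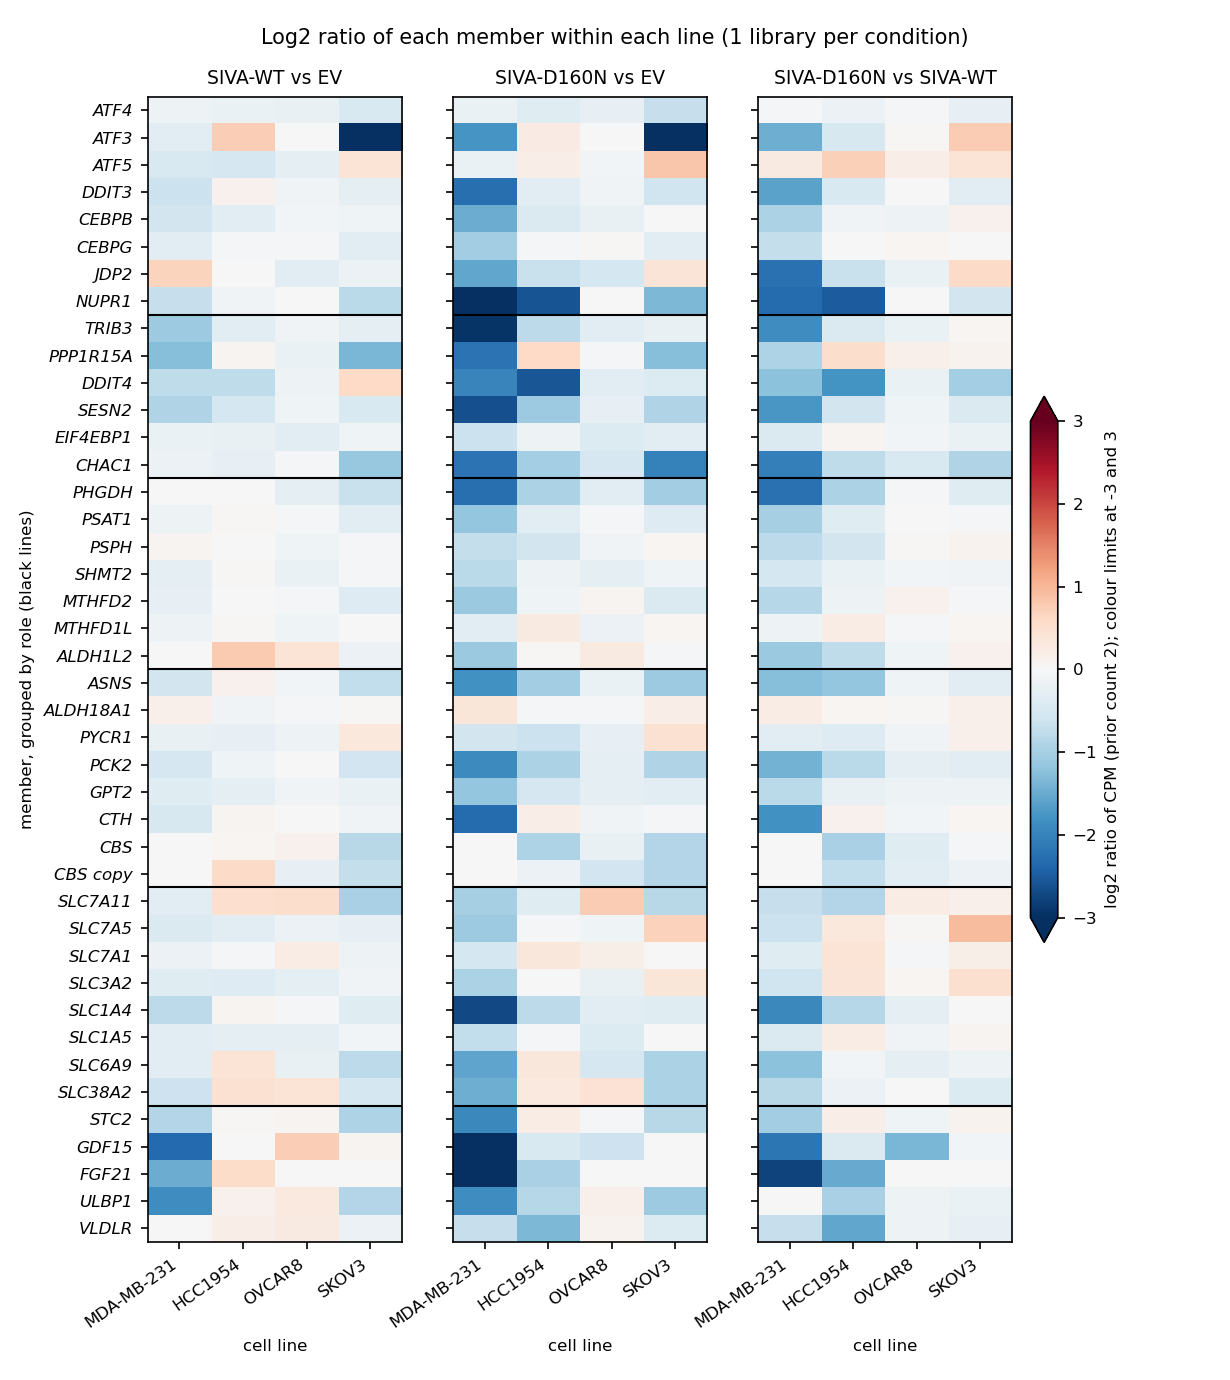
Log2 ratio of CPM (colour, with limits at -3 and 3) of each member row (vertical, grouped by role, *CBS* copy being the second row of that name) in each of the 4 lines (horizontal) for the 3 comparisons, with 1 library per line and condition. The MDA-MB-231 column of *SIVA-D160N* vs EV holds 26 rows at least 2-fold lower, while OVCAR8 holds 0.

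Among the transcription factors, 5 of 8 were lower at an unadjusted p under 0.05 and 0 were higher. *ATF4* (ENSG00000128272, chr22:39520559-39522686 on GRCh38.p14), the central factor of the pathway, was at 639.8, 579 and 556 CPM in EV, *SIVA-WT* and *SIVA-D160N* of MDA-MB-231 and at 293, 254 and 226 CPM in HCC1954. In OVCAR8 it was at 482, 414 and 408 CPM and in SKOV3 at 360.2, 263 and 222 CPM. The order EV above *SIVA-WT* above *SIVA-D160N* held in all 4 lines, although the lines overlapped because they differed more from each other than the conditions did. Its log2 fold change was -0.38 ± 0.09 (SE, FDR 0.154), one of the smallest differences among the members with a low p.

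*DDIT3* (chr12:57516588-57520517), which encodes the stress factor CHOP, was at 103, 65.9 and 21.5 CPM in the same order in MDA-MB-231, a 4.80-fold lower level in *SIVA-D160N* than in EV. Elsewhere it was at 8.36, 9.19 and 6.66 CPM (HCC1954), 16.0, 14.9 and 14.9 CPM (OVCAR8) and 26.8, 22.2 and 17.6 CPM (SKOV3), with ratios of 1.08 to 1.52-fold between EV and *SIVA-D160N* in these lines. Its log2 fold change was -0.81 ± 0.28 (SE, FDR 0.255), and -0.35 without MDA-MB-231.

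*NUPR1* (chr16:28532708-28538974), a small stress-induced chromatin protein, had the lowest p of the members in this comparison. It was at 53.1, 49.6 and 8.78 CPM in HCC1954, at 10.7, 6.10 and 4.18 CPM in SKOV3 and at 2.67, 1.64 and 0.291 CPM in MDA-MB-231, and it had 0 counts in the 3 libraries of OVCAR8. *SIVA-D160N* was thus the lowest library in each line with counts of the gene, and in HCC1954 the *SIVA-WT* library stayed close to EV. The log2 fold change was -2.17 ± 0.37 (SE, FDR 0.128), a value to which OVCAR8 added nothing.

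*ATF3*, a factor induced by many kinds of stress, differed between lines in size and sign. In SKOV3 the EV library was at 27.0 CPM and the *SIVA-WT* and *SIVA-D160N* libraries were at 0.894 and 1.55 CPM, and the gene was at 28.5, 22.8 and 8.28 CPM in MDA-MB-231. In HCC1954 it was at 32.9, 55.0 and 39.3 CPM and in OVCAR8 at 2.08, 2.04 and 2.09 CPM. Within SKOV3, EV stood apart from both transfected libraries, although its level was near that of EV in MDA-MB-231 and HCC1954. The log2 fold change of -1.65 ± 0.78 (SE, FDR 0.366) became -0.54 without SKOV3.

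*CEBPB*, a partner of ATF4, was lower in *SIVA-D160N* in 4 of 4 lines, from 91.3 to 32.6 CPM in MDA-MB-231 and from 19.1 to 19.0 CPM in SKOV3, where the ratio was 1.01-fold. *CEBPG*, another partner, was at 131, 105 and 63.9 CPM in MDA-MB-231 and differed by at most 1.27-fold elsewhere. *JDP2*, a repressor of the AP-1 family, was lower in 3 lines and at 12.8, 11.3 and 16.8 CPM in SKOV3. *ATF5*, which like ATF4 is controlled through its translation, did not share the direction of the others. It was at 19.6, 14.1 and 16.9 CPM in MDA-MB-231, at 32.7, 23.2 and 37.8 CPM in HCC1954, at 26.4, 21.6 and 24.9 CPM in OVCAR8 and at 23.3, 30.8 and 41.3 CPM in SKOV3, and its log2 fold change was 0.17.

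**Figure D3:**
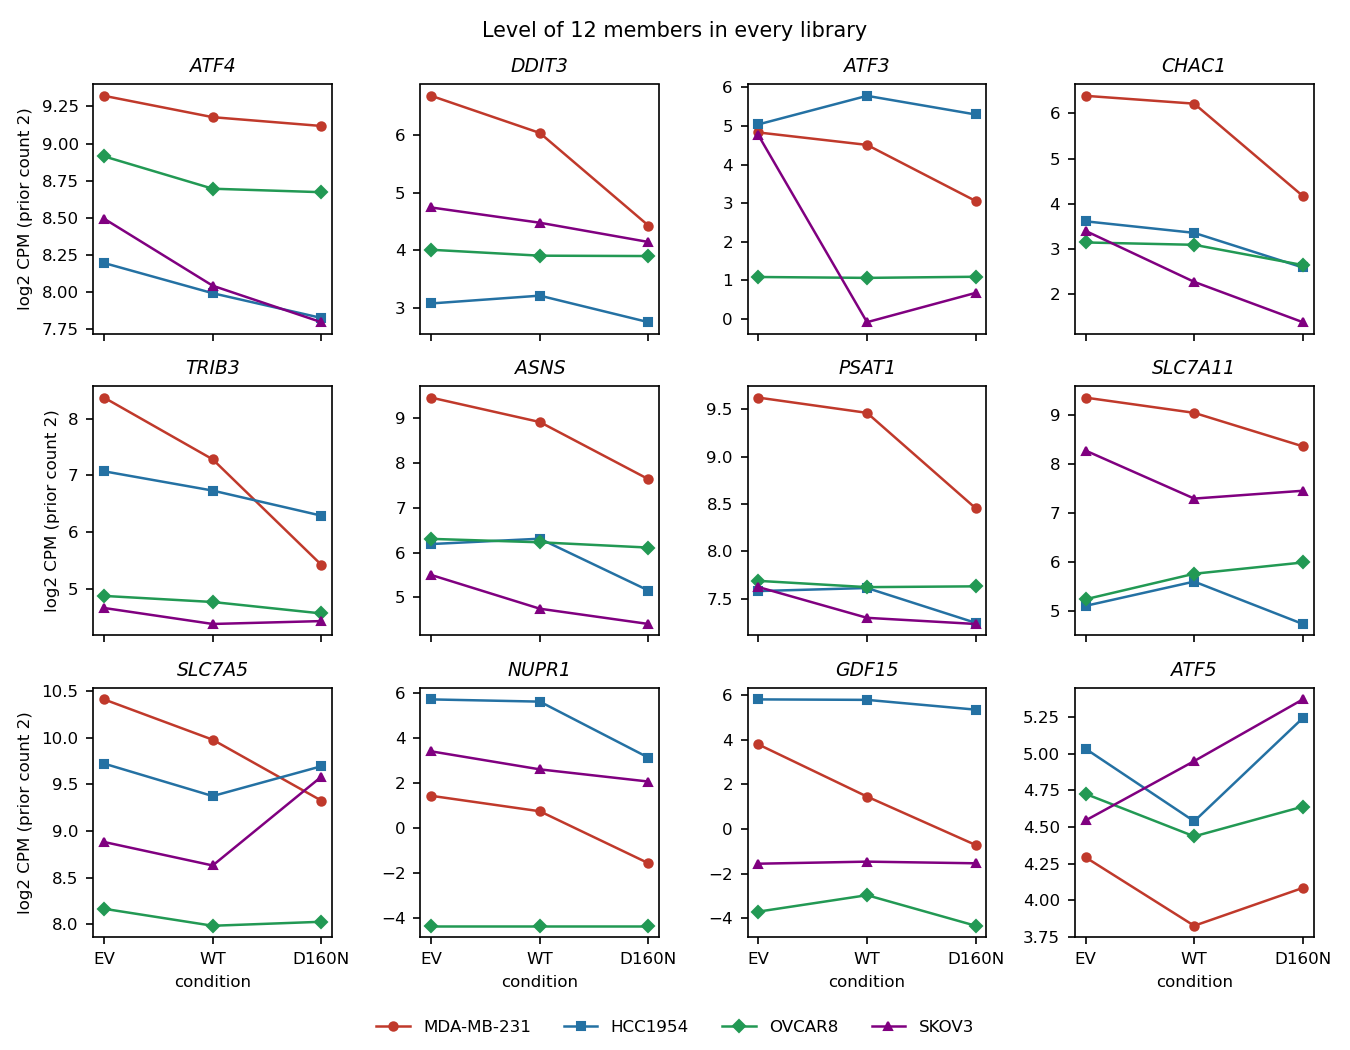
Log2 CPM (vertical axes, each with its own range, computed with a prior count of 2) of 12 members in the EV, *SIVA-WT* and *SIVA-D160N* libraries (horizontal axis) of the 4 lines, 1 point per library. The lines of MDA-MB-231 descend from EV to *SIVA-D160N* for all 12 except *ATF5*, in which *SIVA-WT* is the lowest, while those of OVCAR8 are nearly flat for most, and *ATF3* in SKOV3 is high in EV alone.

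Among the feedback and signalling regulators, 5 of 6 were lower at an unadjusted p under 0.05 and 0 were higher, with a median log2 fold change of -1.10, the lowest of the 6 role groups. *CHAC1* (chr15:40953471-40956512), a glutathione-degrading enzyme and a close reporter of ATF4 activity, was at 83.7, 74.2 and 18.0 CPM in EV, *SIVA-WT* and *SIVA-D160N* of MDA-MB-231. It was at 12.2, 10.2 and 5.98 CPM in HCC1954, at 8.79, 8.48 and 6.20 CPM in OVCAR8 and at 10.5, 4.78 and 2.56 CPM in SKOV3. *SIVA-D160N* was the lowest and EV the highest library in each of the 4 lines. The log2 fold change was -1.44 ± 0.28 (SE, FDR 0.131), and it was between -1.76 and -1.20 when 1 line was left out.

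*TRIB3*, a pseudokinase that inhibits ATF4 and AKT, was at 330.2, 156 and 43.1 CPM in MDA-MB-231, which is 7.65-fold lower in *SIVA-D160N* than in EV. In HCC1954 it was at 135, 106 and 78.4 CPM, while in OVCAR8 it was between 23.8 and 29.5 CPM and in SKOV3 between 20.9 and 25.5 CPM. The log2 fold change was -1.01 ± 0.35 (SE, FDR 0.252), and -0.44 without MDA-MB-231.

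*DDIT4* (also called REDD1) and *SESN2* both restrain the growth regulator mTORC1. *DDIT4* was at 751, 446 and 192 CPM in MDA-MB-231, at 157, 92.5 and 26.6 CPM in HCC1954, at 9.39, 8.48 and 7.43 CPM in OVCAR8 and at 63.6, 96.8 and 47.8 CPM in SKOV3. Its difference was large in both breast lines (3.92-fold and 5.88-fold lower) and small in both ovarian lines (1.26-fold and 1.33-fold lower). The log2 fold change was -1.37 ± 0.33 (SE, FDR 0.154).

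*SESN2* was at 156, 84.1 and 25.1 CPM in MDA-MB-231, at 30.9, 21.4 and 14.5 CPM in HCC1954, at 21.2, 19.4 and 17.9 CPM in OVCAR8 and at 21.8, 15.8 and 11.7 CPM in SKOV3. It kept the order EV, *SIVA-WT*, *SIVA-D160N* in all 4 lines, and its log2 fold change was -1.19 ± 0.29 (SE, FDR 0.154). *EIF4EBP1*, which encodes the cap-binding repressor 4E-BP1, was lower by little but in 4 of 4 lines, between 1.11-fold in HCC1954 and 1.55-fold in MDA-MB-231, and its log2 fold change was -0.38 ± 0.09 (SE, FDR 0.154). *PPP1R15A*, also called GADD34, which recruits the phosphatase that ends the response, was at 395, 162 and 85.6 CPM in MDA-MB-231 and at 73.5, 28.3 and 30.4 CPM in SKOV3. It was higher in HCC1954, at 71.8, 76.1 and 109 CPM, and between 93.5 and 108 CPM in OVCAR8.

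The serine, glycine and one-carbon enzymes had 5 of 7 members lower at an unadjusted p under 0.05 and 0 higher, with smaller differences (median log2 fold change -0.34). *PHGDH*, the first enzyme of serine synthesis, was at 234, 235 and 121 CPM in HCC1954, at 340.2, 281 and 269 CPM in OVCAR8 and at 82.0, 51.4 and 40.0 CPM in SKOV3. MDA-MB-231 had little of it in any library, at 1.81, 1.79 and 0.340 CPM, so that its 4.78-fold lower value there was from a low level. The log2 fold change over the lines was -0.91 ± 0.23 (SE, FDR 0.166).

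The other 2 steps of serine synthesis are catalysed by *PSAT1* and *PSPH*. *PSAT1* was at 789, 705 and 351 CPM in MDA-MB-231, at 191, 196 and 152 CPM in HCC1954, at 206, 197 and 198 CPM in OVCAR8 and at 197, 157 and 150.3 CPM in SKOV3. In MDA-MB-231 it was far above the other lines in each condition, opposite to *PHGDH*. *PSPH* was 1.64-fold and 1.46-fold lower in *SIVA-D160N* than in EV in MDA-MB-231 and HCC1954, and it was between 15.5 and 16.6 CPM in all 3 libraries of SKOV3.

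*SHMT2*, the mitochondrial enzyme that takes a one-carbon unit from serine, was at 805, 664 and 459 CPM in MDA-MB-231 and at 382, 331 and 314 CPM in OVCAR8, with values of 154 to 176 CPM in HCC1954 and 159.5 to 174 CPM in SKOV3. It was lower in 4 of 4 lines, and its log2 fold change was -0.34 ± 0.11 (SE, FDR 0.233). *MTHFD2*, the next mitochondrial folate enzyme, was at 339.9, 286 and 158 CPM in MDA-MB-231 and at 208, 200.3 and 220.4 CPM in OVCAR8. *MTHFD1L* and *ALDH1L2*, which act on 10-formyl-tetrahydrofolate, had log2 fold changes of -0.04 and -0.15, and neither had an unadjusted p under 0.05.

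Of the other amino acid enzymes, 4 of 8 rows were lower at an unadjusted p under 0.05 and 0 were higher. *ASNS* (chr7:97851677-97928441), which makes asparagine and is the classic target of the amino acid response, was at 696, 478 and 198 CPM in EV, *SIVA-WT* and *SIVA-D160N* of MDA-MB-231. In HCC1954 it was at 72.8, 79.1 and 35.6 CPM, in OVCAR8 at 78.9, 74.9 and 69.0 CPM and in SKOV3 at 45.2, 26.9 and 21.2 CPM. It was at least 2-fold lower in 3 lines and 1.14-fold lower in OVCAR8, and its log2 fold change was -1.02 ± 0.22 (SE, FDR 0.148).

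*PCK2*, the mitochondrial enzyme that makes phosphoenolpyruvate, was at 313, 222 and 83.1 CPM in MDA-MB-231, at 69.6, 63.4 and 36.2 CPM in HCC1954, at 113, 114 and 93.7 CPM in OVCAR8 and at 24.5, 16.3 and 13.0 CPM in SKOV3, and its log2 fold change was -0.996 ± 0.207 (SE, FDR 0.136). *GPT2*, the mitochondrial alanine transaminase, kept the order EV, *SIVA-WT*, *SIVA-D160N* in all 4 lines, from 235 to 105 CPM in MDA-MB-231 and from 55.5 to 44.1 CPM in SKOV3 between EV and *SIVA-D160N*. Its log2 fold change was -0.56 ± 0.13 (SE, FDR 0.154).

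*CTH* and *CBS* are the enzymes that make cysteine from homocysteine. *CTH* was at 98.0, 69.7 and 19.7 CPM in MDA-MB-231, whereas all libraries of the other lines were between 3.40 and 9.83 CPM and differed by at most 1.14-fold between EV and *SIVA-D160N*. *CBS* had 0 counts in the 3 libraries of MDA-MB-231, and it was at 12.2, 12.7 and 6.40 CPM in HCC1954, at 21.4, 23.6 and 18.3 CPM in OVCAR8 and at 0.951, 0.514 and 0.491 CPM in SKOV3. Since its second row (ENSG00000274276, at most 1.04 CPM) is a near-identical copy between which reads can be split, the *CBS* values are uncertain. Of the proline enzymes, *ALDH18A1* was higher in *SIVA-D160N* in MDA-MB-231 (143, 159 and 185 CPM) and had a log2 fold change of 0.12, and *PYCR1* was lower in 3 lines (1.19-fold to 1.55-fold) but at 37.4, 46.7 and 51.7 CPM in SKOV3.

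Of the amino acid transporters, 2 of 8 (*SLC1A4* and *SLC1A5*) were lower at an unadjusted p under 0.05 and 0 were higher, with a median log2 fold change of -0.34. *SLC7A11*, which takes up cystine, was at 659, 531 and 329.8 CPM in MDA-MB-231 and at 311, 157 and 175 CPM in SKOV3. It was at 34.2, 48.3 and 26.4 CPM in HCC1954, and in OVCAR8 the order was reversed, at 37.6, 54.0 and 63.3 CPM. The log2 fold change was -0.39 ± 0.27 (SE, FDR 0.544).

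*SLC7A5* and *SLC3A2* encode the chains of the large neutral amino acid transporter. *SLC7A5* was at 1361, 1008 and 641 CPM in MDA-MB-231, at 844, 663 and 828 CPM in HCC1954, at 287, 253 and 261 CPM in OVCAR8 and at 471, 396 and 766 CPM in SKOV3. *SLC3A2* was likewise lower in *SIVA-D160N* in MDA-MB-231 (651, 506 and 336 CPM) and higher in SKOV3 (315, 291 and 405 CPM). The direction of both genes thus differed between MDA-MB-231 and SKOV3.

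*SLC1A4*, a carrier of alanine, serine and cysteine, was at 40.8, 23.6 and 6.17 CPM in MDA-MB-231, at 5.13, 5.40 and 2.97 CPM in HCC1954, at 12.7, 12.2 and 10.1 CPM in OVCAR8 and at 41.2, 32.1 and 32.1 CPM in SKOV3. Its log2 fold change was -0.99 ± 0.33 (SE, FDR 0.243), and -0.46 without MDA-MB-231. The glutamine carrier *SLC1A5* was 1.67-fold lower in MDA-MB-231 and 1.33-fold lower in OVCAR8, and within 1.05-fold in the other lines. *SLC38A2*, a carrier of small neutral amino acids, was at 829.6, 537 and 301 CPM in MDA-MB-231 and at 357, 246 and 184 CPM in SKOV3, but it was higher than EV in HCC1954 and OVCAR8. The glycine carrier *SLC6A9* was lower in 3 lines, at low levels in OVCAR8 and SKOV3, and the arginine carrier *SLC7A1* had a log2 fold change that rounds to 0.

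The secreted and cell surface proteins had 2 of 4 tested members lower at an unadjusted p under 0.05, *GDF15* and *VLDLR*, and 0 higher. *GDF15*, a stress cytokine, was at 13.7, 2.68 and 0.558 CPM in MDA-MB-231, from 619, 106 and 23 counts. It was at 55.5, 54.7 and 40.4 CPM in HCC1954, between 0.290 and 0.313 CPM in SKOV3 and at most 0.0785 CPM in OVCAR8. Its log2 fold change of -1.91 ± 0.67 (SE, FDR 0.256) was -0.39 without MDA-MB-231.

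*FGF21*, a hormone of the fasting response, was not tested. It had 62, 18 and 1 counts in MDA-MB-231, at most 4 counts in HCC1954 and 0 in the ovarian lines. EV was 56.4-fold over *SIVA-D160N* in MDA-MB-231, with an exact 95% counting interval of 9.76 to 2260-fold. *STC2*, a secreted glycoprotein, was at 28.0, 15.2 and 7.36 CPM in MDA-MB-231, at 48.0, 49.3 and 56.2 CPM in HCC1954 and at 103, 109.8 and 100.5 CPM in OVCAR8. *VLDLR*, a lipoprotein receptor, was at 119.8, 138 and 47.0 CPM in HCC1954 and at 77.9, 77.5 and 48.3 CPM in MDA-MB-231, while it was between 9.72 and 11.7 CPM in OVCAR8. *ULBP1*, a ligand of natural killer cells, was nearly absent from MDA-MB-231, at 10, 1 and 1 counts, and was at 5.68, 3.04 and 2.65 CPM in SKOV3.

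The comparison of *SIVA-WT* with EV asks whether more of the normal gene goes with a difference. No member passed the thresholds, as was the case for 0.0% of all genes, and 3 members were lower at an unadjusted p under 0.05 (*ATF4*, *EIF4EBP1* and *PPP1R15A*, against 1.07% of all genes) and 0 were higher (1.47%). The median of the members was -0.24, against -0.0054 over all genes, and 37 of 41 rows were below 0 (51.6%). By line, the median log2 ratio was -0.32 for MDA-MB-231, 0.01 for HCC1954, -0.08 for OVCAR8 and -0.28 for SKOV3. In HCC1954, 19 rows were lower, near the share of all genes (48.7%). *ATF4* was at -0.26 on the log2 scale (standard error 0.09, FDR 1.00), *EIF4EBP1* at -0.22 ± 0.09 (SE, FDR 1.00) and *PPP1R15A* at -0.79 ± 0.34 (SE, FDR 1.00). *ATF4*, *CEBPB*, *CEBPG*, *TRIB3*, *SESN2*, *EIF4EBP1*, *CHAC1*, *GPT2*, *SLC7A5*, *SLC3A2* and *SLC1A5* were lower in 4 of 4 lines, which is 11 rows, against 4.78% of all genes. At least 2-fold lower were *TRIB3*, *PPP1R15A*, *GDF15* and *ULBP1* in MDA-MB-231 (4 rows, against 2.1% of all genes), *ATF3*, *PPP1R15A* and *CHAC1* in SKOV3 (3 rows, 3.85%) and 0 rows in HCC1954 (1.02%) and OVCAR8 (1.19%). The 3 comparisons share libraries, so they are not independent of each other.

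The comparison of *SIVA-D160N* with *SIVA-WT* sets the mutant insert against the normal one, in cells that all carry the vector. No member passed the thresholds (0.0% of all genes did), while 10 were lower at an unadjusted p under 0.05 (*NUPR1*, *DDIT4*, *SESN2*, *CHAC1*, *PHGDH*, *ASNS*, *PCK2*, *GPT2*, *CBS* and *VLDLR*, against 4.3% of all genes). Only *ATF5* was higher at this p, and its log2 fold change was 0.40 (2.44% of the members, against 2.58% of all genes). The median of the members was -0.32, against -0.0029 over all genes. By line, the median log2 ratio was -0.86 for MDA-MB-231, -0.38 for HCC1954, -0.09 for OVCAR8 and -0.05 for SKOV3. In SKOV3, 21 rows were lower, near the share of all genes (47.2%). *NUPR1* was at -1.69 on the log2 scale (standard error 0.37, FDR 0.719), *CHAC1* at -1.04 ± 0.28 (SE, FDR 0.719) and *PCK2* at -0.68 ± 0.21 (SE, FDR 0.719). *NUPR1* passed both thresholds with the likelihood ratio test, with DESeq2 and without the filter. At least 2-fold lower were 18 rows in MDA-MB-231 (2.64% of all genes), 4 in HCC1954 (*NUPR1*, *DDIT4*, *ASNS* and *VLDLR*, against 6.34%), *GDF15* in OVCAR8 (at 3 and 0 counts, too few to give a fold, against 1.6%) and *DDIT4* in SKOV3 (1.85%). In HCC1954, *ASNS*, *NUPR1* and *VLDLR* were thus close in EV and *SIVA-WT* and lower in *SIVA-D160N*, with *DDIT4* in *SIVA-WT* between the other libraries, whereas in SKOV3 *ATF3*, *PPP1R15A* and *SLC7A11* were lower than EV in *SIVA-WT* as well.

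In MDA-MB-231 the *SIVA-WT* library lay between the others for 34 of 41 rows, with EV the highest and *SIVA-D160N* the lowest, against 27.9% of all genes. The same order was seen for 12 rows in HCC1954 (20.1% of all genes), 20 in OVCAR8 (22.0%) and 19 in SKOV3 (24.7%). *ALDH18A1* alone had the opposite order in MDA-MB-231, against 25.6% of all genes.

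Whether the difference between *SIVA-D160N* and EV was larger in the breast lines than in the ovarian lines was tested as an interaction. No member passed an FDR under 0.05, as against 0.00581% of all genes, while 11 were lower by more in the breast lines at an unadjusted p under 0.05 (2.93% of all genes) and 0 were lower by more in the ovarian lines (2.13%). The 11 were *CEBPB*, *NUPR1*, *TRIB3*, *DDIT4*, *SESN2*, *PSPH*, *ASNS*, *PYCR1*, *PCK2*, *SLC1A4* and *VLDLR*. The log2 difference between ovarian and breast lines was 1.87 for *DDIT4* (standard error 0.32, FDR 0.338) and 0.61 for *PSPH* (standard error 0.18, FDR 0.964). It was 1.47 for *NUPR1* (standard error 0.41, FDR 0.964), which had 0 counts in OVCAR8. With any line left out, 1 line stood for its tissue. Counts of members at this p from those fits therefore cannot decide on a difference between tissues, and they are given only under the dependence on processing. The log2 difference of *DDIT3* was 0.98 with all lines and -0.030 without MDA-MB-231. That of *DDIT4* was between 1.57 and 2.18 over the alternatives. *DDIT4* passed an FDR under 0.05 with the likelihood ratio test, with DESeq2, without the filter on low counts and with the genes of the deposited CPM table, *TRIB3* with the last 2 of these and *SLC1A4* without the filter. In the breast lines alone *DDIT4* and *NUPR1* passed both thresholds in *SIVA-D160N* vs EV.

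The members differed far more between lines than between conditions. All 41 rows had an FDR under 0.05 for the line (edgeR's quasi-likelihood F-test), as did 93.9% of all genes. This is thus a property of most genes. The 3 libraries of a line derive from 1 line and are not independent replicates of it. The test sets the lines against the spread left after the condition. MDA-MB-231 had the highest EV library of the 4 for 25 of 41 rows, against 23.4% of all genes. Among the *SIVA-D160N* libraries it was the highest for 16 rows, against 23.2%. *ATF4*, *DDIT4*, *CHAC1*, *PSAT1*, *SHMT2*, *MTHFD1L*, *ASNS*, *GPT2*, *CTH*, *SLC7A11* and *SLC1A5* were higher in all 3 libraries of MDA-MB-231 than in the other 9 (11 rows, against 12.9% of all genes). *TRIB3*, *PCK2*, *CEBPB* and *CEBPG* in contrast were highest in MDA-MB-231 in EV and lower there than in at least 1 other line in *SIVA-D160N*. Lowest in all 3 libraries of MDA-MB-231 were *ATF5*, *JDP2*, *PHGDH*, *ALDH1L2*, *ULBP1* and both rows of *CBS* (7 rows, against 12.4% of all genes). SKOV3 was below the other 9 libraries for 11 rows (12.9% of all genes), among them *MTHFD2*, *PCK2*, *STC2* and *SLC6A9*, and above them for 0 (15.6% of all genes). OVCAR8 was highest for *PHGDH*, *PYCR1*, *EIF4EBP1*, *ALDH1L2*, *CBS*, *STC2* and *ULBP1* (7 rows, against 14.3% of all genes) and lowest for 7 rows (13.0%), and HCC1954 was highest for *ATF3*, *SLC6A9* and *GDF15* (3 rows, 15.8%) and lowest for 4 rows (14.8%). The shares in OVCAR8 were near those of all genes.

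Other genes of the pathway were counted in 5 lists drawn up by function, also with earlier results of these data known. Of 18 genes for the eIF2 kinases and the eIF2 machinery, 1 was lower in *SIVA-D160N* than in EV at an unadjusted p under 0.05 and 2 were higher, against 7.68% and 6.52% of all genes, and the median log2 fold change was 0.05. *EIF2S1*, the eIF2 subunit that the kinases phosphorylate, was at 0.25 ± 0.09 (SE, FDR 0.265), and *EIF2S2*, another subunit, was at -0.24 ± 0.09 (SE, FDR 0.266). Of 20 tested other target genes of ATF4, 10 were lower and 0 were higher, with a median of -0.38 and all 20 below 0. The tRNA synthetase genes *AARS* (-0.42 ± 0.10, FDR 0.154) and *CARS* (-0.51 ± 0.12, FDR 0.154) had the lowest p, and both were lower in 4 of 4 lines.

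The other 3 lists are given beside the same background, and no test compared the lists. Of 27 amino acid and folate enzymes that are not members, 5 were lower and 4 were higher, with a median of 0.01. *ARG2*, a mitochondrial arginase, was at -0.70 ± 0.16 (SE, FDR 0.148). Of 13 amino acid transporters that are not members, 1 was lower and 2 were higher, with *SLC1A3* at -0.89 ± 0.31 (SE, FDR 0.256) and *SLC7A6* at 0.23 ± 0.08 (SE, FDR 0.270). Of 19 genes of the ATF6 and IRE1-XBP1 arm of the unfolded protein response, 1 was lower and 0 were higher. *XBP1* was at -0.48 ± 0.20 (SE, FDR 0.314) and *CRELD2* at 0.26 ± 0.12 (SE, FDR 0.356), and the median of the list was -0.04.

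**Figure D4:**
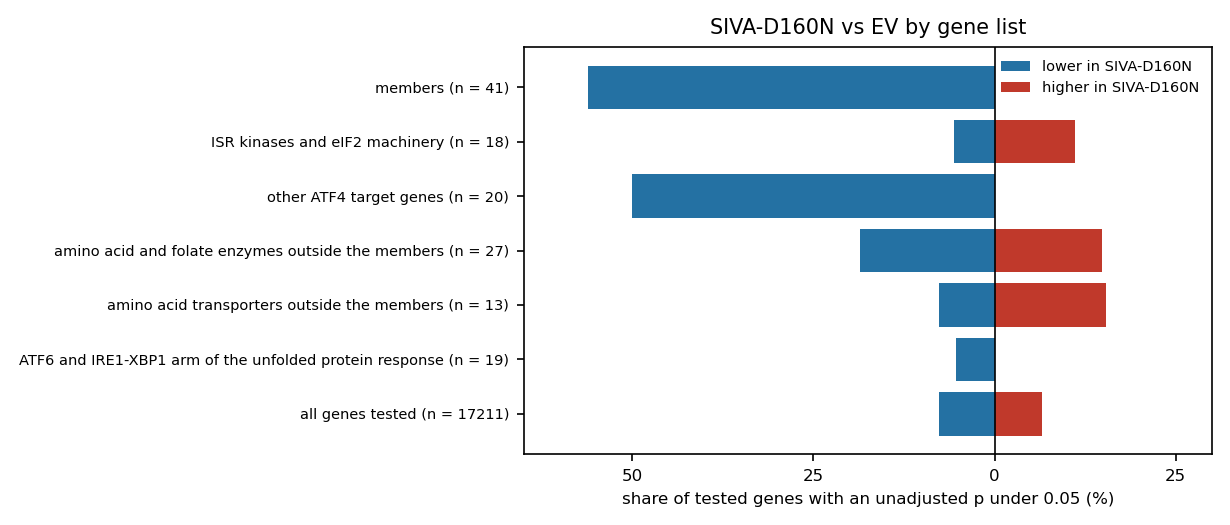
Share of tested genes (%, horizontal axis) with an unadjusted p under 0.05 that were lower (blue, to the left) or higher (red, to the right) in *SIVA-D160N* than in EV, for the 41 member rows, the 5 other lists and all 17211 genes. The members and the other ATF4 target genes have 23 of 41 and 10 of 20 lower and 0 higher, while the remaining lists have at most 5 lower.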

How the data were processed

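Polyadenylated RNA of 12 libraries was sequenced. The authors prepared stranded libraries and aligned them to GRCh38 with STAR (2.5.3a per the submitters' processing notes, which also name FastQC and edgeR), and deposited gene counts without normalization for 57187 genes. The annotation release is not given in the sources used here. They also deposited a table of scaled CPM values (a signal normalized to library size), of which only the list of genes was used. Of the columns, 0 were left without a sample.

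The counts were fitted here in R 4.3.3 with edgeR 4.0.16 (glmQLFit and glmQLFTest, TMM, filterByExpr by condition, terms for condition and cell line, all 12 libraries), which left 17211 genes. Log2 ratios within a line used a prior count of 2. Called genes had an FDR under 0.05 together with a log2 fold change of 1.5 or more in size, the thresholds named in the study's supplement. The filter differed, as the supplement describes removal of non-expressing genes and of genes without an EntrezGene identifier. Its list for *SIVA-D160N* against control is longer than the 1 gene called here. Members it names from that list include *ATF4*, *DDIT4*, *GDF15*, *FGF21* and *PCK2*, none of them called here in the main fit. The source of this difference was not tested. DESeq2 1.42.0, limma-voom (limma 3.58.1), other scalings, filters and thresholds, and single lines left out were alternatives, and the fits within each tissue were added after seeing the data. Figures were drawn with matplotlib 3.10.9.

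The line, from which 3 libraries each derive, was the replicate block. Libraries of a line deviated together from their condition's mean (correlations 0.929 to 0.968, against -0.447 to -0.192 between lines). Subtracting that mean pulls the values between lines below 0 by construction, so their sign says nothing about the lines. None of the 66 pairs of libraries held identical counts. Members and lists were chosen with earlier results of these data known. Full statistics were given for *ATF4*, *ATF3*, *DDIT3*, *TRIB3*, *CHAC1*, *ASNS*, *SLC7A11* and *GDF15*, for the 12 members with the lowest p in *SIVA-D160N* vs EV, for the 3 with the lowest p in each other comparison and for 2 genes of each other list, of which 1 is not reported here. The promoter sequences and gene positions are from RefSeq on GRCh38.p14.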

Additional observations from a re-analysis of the deposited data

Results flagged for a closer look

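For each member, the 4 lines were checked for 1 value that stood apart from the other 3 by Dixon's test, in the log2 ratios of the 3 comparisons and in the log2 CPM of the 3 conditions. Of 246 such sets of 4 values, 12 had one, where 12.3 would be found by chance at 1 in 20, and 8 of the 12 were in MDA-MB-231. In *SIVA-D160N* vs EV, *CTH* had a log2 ratio of -2.31 in MDA-MB-231 (the other lines were between -0.10 and 0.19), and *GDF15* had -4.50 there (the others between -0.63 and 0.02). In *SIVA-D160N* vs *SIVA-WT*, again in MDA-MB-231, *CTH* had -1.82, *GPT2* -0.80 and *CEBPG* -0.71, against -0.09 to 0.12, -0.22 to -0.14 and -0.01 to 0.05 in the other lines. In *SIVA-WT* vs EV, SKOV3 stood apart for *CBS* at -0.83, where the others were between 0 and 0.14, and for *SLC1A5* at -0.088, where the others were between -0.31 and -0.30.

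The other 5 values were levels. Log2 CPM in EV was 9.62 for *PSAT1* and 6.39 for *CHAC1* in MDA-MB-231, against at most 7.69 and 3.61 in the other lines, and *PSAT1* was also apart in *SIVA-WT* of MDA-MB-231, at 9.46. *ATF3* was low in EV of OVCAR8, at 1.09, where the others were between 4.76 and 5.04. *SLC7A1* was low in *SIVA-D160N* of HCC1954, at 6.99, where the others were between 8.12 and 8.29.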

How the results depend on the processing

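The members lower in *SIVA-D160N* than in EV at an unadjusted p under 0.05 (23) numbered 15 without replicate 1 (MDA-MB-231), 15 to 27 over the 4 lines left out, 9 in the ovarian lines only and 1 with no replicate block, which is the fit without the line. At this p, 1071 of all 18601 genes tested were lower without MDA-MB-231 and 1503 of 18367 without OVCAR8. In the ovarian lines they were 495 of 18056, and with no replicate block 13 of 17211. Members past both thresholds in this comparison (0) numbered 1 with the likelihood ratio test, DESeq2 or limma-voom, 4 with no filter or with the genes of the deposited CPM table, and 2 in the breast lines only. Of all genes, 52, 12 and 5 passed both with the likelihood ratio test, DESeq2 and limma-voom. Those passing were 172 of 34909 with no filter, 161 of 34525 with the CPM genes and 3 of 18022 in the breast lines. In *SIVA-WT* vs EV, the 3 lower members became 15 with no filter, 12 with the genes of the CPM table, 0 with no replicate block and 1 to 3 with a line left out (1 without SKOV3), and the 11 rows lower in all lines became 11 to 23 (23 without HCC1954). With no filter, 365 of all 34909 genes were lower at this p, and with the CPM genes 342 of 34525. With a line left out, fewer lines had to share the direction, and the share of all genes that did so was not counted. In *SIVA-D160N* vs *SIVA-WT*, 1 member was called with the likelihood ratio test, DESeq2, no filter or the genes of the CPM table. The 10 lower members became 21 with no filter or the CPM genes, 20 in the breast lines, 1 in the ovarian lines, 0 with no replicate block and 7 to 14 with a line left out, and the median of -0.32 became -0.74 in the breast lines. Lower among all genes at this p were 1266 of 34909 with no filter and 1224 of 34525 with the CPM genes. They were 889 of 18022 in the breast lines and 208 of 18056 in the ovarian lines. For the tissue difference, 1 member was called with the likelihood ratio test or DESeq2, 3 with no filter and 2 with the CPM genes, and the 11 with a larger difference in the breast lines became 21, 20, 1 (no replicate block) and 3 to 25 (3 without MDA-MB-231, 25 without HCC1954). No conclusion on tissue is drawn from the counts of the tissue difference with a line left out, where 1 line stood for its tissue. Changes of sign were counted only for the members with full statistics in each comparison. Among the others, *SLC7A5* was between -0.53 and 0.30 and *ALDH1L2* between -0.52 and 0.15 over the alternatives in *SIVA-D160N* vs EV. The log2 difference of the members counted turned its sign in 15 cases. For *SIVA-WT* vs EV, *ATF3* was between -1.74 and 0.098 with a line left out (0.098 without SKOV3) and 0.14 in the breast lines, *SLC7A11* between -0.31 and 0.20 (0.20 without SKOV3) and 0.092 in the breast lines, and *GDF15* between -1.55 and 0.050 (0.050 without MDA-MB-231) and 0.37 in the ovarian lines. For *SIVA-D160N* vs *SIVA-WT*, *ATF3* was 0.27 and *SLC7A11* 0.20 in the ovarian lines. For the tissue difference with a line left out, *ATF4* was between -0.41 and 0.055, *ATF3* between -3.37 and 0.77 and *GDF15* between -1.01 and 4.45 (all turned without SKOV3), *DDIT3* between -0.030 and 1.89 (without MDA-MB-231), *CHAC1* between -0.42 and 1.12 (without MDA-MB-231, at -0.25, and without OVCAR8) and *SLC7A11* between -0.11 and 1.47 (without OVCAR8). At 1.5-fold in place of 2-fold, pairs of member and line that were lower numbered 65 in place of 39 (*SIVA-D160N* vs EV), 24 in place of 7 (*SIVA-WT* vs EV) and 46 in place of 24 (*SIVA-D160N* vs *SIVA-WT*). The cause of these shifts was not tested beyond the construction of each alternative. The other 119 counts and medians stayed close to their values. Of 602 values of members with full statistics, 520 kept their direction and their side of an FDR of 0.05. Another 67 kept their direction and passed it. *NUPR1* in OVCAR8, *CBS* in MDA-MB-231 and *FGF21* outside MDA-MB-231 had no or too few counts to give a fold. Whether depth or absence of the RNA was the reason was not tested.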
